A study of Mus musculus with 22 samples.

Results

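The early-G1 comparison asks where RNA polymerase II (PolII) is found when mouse erythroid cells leave mitosis with or without the architectural protein CTCF. It rests on 4 PolII ChIP-seq peak lists from cells collected 60 min after release from a nocodazole block in prometaphase, 2 without auxin (control replicates 1 and 2) and 2 with auxin (auxin replicates 1 and 2). All 412977 peaks of these lists were used, of 1309572 in the series. Peaks that overlapped by at least 1 bp were merged into 133575 regions, and each region was scored in each list by whether a peak was present, by how many bases were covered and by the rank of its fold enrichment. No peak was chosen for how it differed between conditions.

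All 4 libraries come from G1E-ER4, a subline of the GATA1-null proerythroblast line G1E, in a single engineered line in which both alleles of Ctcf carry an AID-mCherry tag at the C terminus and which expresses the auxin receptor TIR from a retroviral construct. Control cells therefore carry the same tag, the same receptor and the same nocodazole arrest, and differ by the absence of auxin. Auxin was added during the arrest and kept after release. Cells were sorted on DNA content and on mCherry, which was retained in control and lost in auxin-treated cells. The labels describe the replicates as biological.

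CTCF is a zinc-finger protein that stops loop-extruding cohesin and thereby sets many domain borders and loops, some of which join enhancers to promoters. During mitosis PolII leaves most of the genome and elongation stops, and in the first hour of G1 the polymerase is loaded at promoters again and moves into gene bodies. A PolII peak at a transcription start site (TSS) marks recruitment or pausing, peaks along the body mark elongating polymerase, and peaks beyond the annotated end mark polymerase that has passed the cleavage site and has not yet been released. A peak list records only what passed the threshold of the caller, so a missing peak is not an absence of PolII.

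To show what these promoters look like, the 150 bases before the TSS are given for 6 regions whose rank was called changed. They are those of largest change on chromosomes other than 18 whose window holds no annotated exon, read 5′ to 3′ on the strand of the gene from the mouse genome NCBIM37 (mm9). Capitals mark matches on either strand to the GC box GGGCGG, the CCAAT box CCAAT, the TATA box TATAAA and the GATA site AGATAA, which do not overlap each other in these windows. The first 4 promoters belong to regions lower in rank with auxin and the last 2 to regions higher in rank. They lie at chr4:122959918-122960067, chr6:83298991-83299140, chr8:125967058-125967207, chr7:87487873-87488022, chr8:87514344-87514493 and, on the minus strand, chr5:116474518-116474667.
Pabpc4: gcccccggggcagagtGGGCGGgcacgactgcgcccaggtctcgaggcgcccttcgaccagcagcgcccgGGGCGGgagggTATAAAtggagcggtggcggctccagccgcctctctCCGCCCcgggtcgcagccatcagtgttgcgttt
Bola3: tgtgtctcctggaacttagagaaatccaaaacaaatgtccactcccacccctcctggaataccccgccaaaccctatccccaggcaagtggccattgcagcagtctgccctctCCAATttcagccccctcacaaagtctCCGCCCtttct
Def8: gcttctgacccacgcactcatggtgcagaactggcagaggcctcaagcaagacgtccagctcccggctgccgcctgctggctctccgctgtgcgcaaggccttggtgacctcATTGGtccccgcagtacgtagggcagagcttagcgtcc
Hddc3: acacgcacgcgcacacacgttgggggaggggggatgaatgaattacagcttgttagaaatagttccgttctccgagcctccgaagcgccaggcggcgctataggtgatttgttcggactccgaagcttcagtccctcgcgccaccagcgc
Hook2: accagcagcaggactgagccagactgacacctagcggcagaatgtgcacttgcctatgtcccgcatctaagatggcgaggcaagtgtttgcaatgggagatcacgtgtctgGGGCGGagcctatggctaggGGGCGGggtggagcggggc
Prkab1: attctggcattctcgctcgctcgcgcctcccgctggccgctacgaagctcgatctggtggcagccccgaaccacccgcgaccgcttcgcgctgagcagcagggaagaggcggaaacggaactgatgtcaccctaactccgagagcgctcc

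The Pabpc4 promoter holds 3 GC boxes and a TATA box, that of Bola3 a GC box and a CCAAT box, that of Def8 a CCAAT box and that of Hook2 a pair of GC boxes, whereas those of Hddc3 and Prkab1 hold none of the motifs searched. Their GC content ranged from 54% in Bola3 to 72.67% in Pabpc4, beside a median of 63.33% over the same window at all 8505 tested regions with a protein-coding TSS. GC boxes were present in 54.44% of the 8505 windows, in 5 of the 9 windows of regions called lower and in 8 of the 13 called higher. CCAAT boxes were present in 28.61% of all windows, in 2 of the 9 and in 2 of the 13. TATA boxes were present in 3.01% of all windows and, among the called ones, at Pabpc4 alone. GATA sites were present in 2.928% of all windows, in 1 of the 9 and in 0 of the 13. The core motif of CTCF was present in 0.5644% of all windows and in none of the 22 called ones. Within 150 bases of the summit, it was present in 0.4067% of the 36634 tested regions, in 1 of the 22 called lower, which holds the TSS of E130311K13Rik and is named here after its value was seen, and in 0 of the 15 called higher. The 53 coding TSS regions with a core motif beside the summit had a median change in −log2 rank of 0.15, and the 8452 without it one of 0.05. These matches describe letters in a window and not bound sites. By CTCF ChIP-seq in asynchronous cells, the study found TSS occupancy highest at genes whose PolII fell most after CTCF loss.

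The lists were of similar size and of unequal depth. They held 107213 and 103538 peaks in control and 102195 and 100031 in auxin-treated cells. A relative depth recovered from each list was 8.15 and 11.8 reads per kb of genome in control and 7.53 and 7.92 in auxin. By this measure control replicate 2 was the deepest and the other 3 lay close together. The read totals that the study lists also put control replicate 2 first. They place auxin replicate 2 above control replicate 1, so the order of the other 3 is uncertain. Ranks across the 36634 regions found in all 4 lists correlated at 0.917 within control, at 0.919 within auxin and at 0.901 to 0.909 between conditions, as a description across regions that share libraries. A peak at the TSS was present in all 4 lists for 11 of 14 erythroid markers, among them Tfrc (the transferrin receptor), Tal1, Gata2 and Klf1 (hematopoietic transcription factors). Peaks were not found for Hba-a1 and Alas2 in any list, and Hbb-b1 had a peak in control replicate 1 only, at rank 22903.5. Of the markers of other lineages, Itga2b of 5 megakaryocyte markers and Cd68 of 7 macrophage and granulocyte markers had a peak, the latter in a region that also holds the TSS of Eif4a1. None of the lymphoid, fibroblast, hepatocyte and pluripotent markers had a peak.

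Ctcf itself, whose protein and not its gene is the target of auxin, had a peak at its TSS in all 4 lists. Its rank was 5181 and 5985.5 in control and 5657.5 and 4549.5 in auxin, and the conditions overlapped (change in −log2 rank 0.13 ± 0.26 (SE), limma adjusted p = 0.932). It does not check the labels, because degradation acts after translation.

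With auxin, PolII peaks covered less of the genome. The difference was seen along gene bodies, past gene ends and elsewhere, and was smaller around TSSs. Peaks covered 66.7 and 73.3 Mb in control and 57.1 and 56.8 Mb in auxin, and the conditions did not overlap. The mean was 70.0 ± 4.62 Mb (SD, n = 2) in control and 57.0 ± 0.257 Mb (SD, n = 2) in auxin, 81.5% of control (a log2 change of −0.30; p = 0.333 by an exact permutation test, two-sided, and 2 libraries against 2 cannot go below this). The median peak was 332 and 361 bp wide in control and 313 and 320 bp in auxin (log2 difference −0.13, p = 0.333 in the same exact test, and −0.07 without control replicate 2). The number of peaks differed less (a log2 change of −0.06, with the same p = 0.333 in that exact test), whereas peaks wider than 5 kb numbered 1016 and 1344 in control and 628 and 577 in auxin. The log2 difference in covered length was −0.23 without the deeper control replicate 2 and −0.27 with equal numbers of peaks from each list.

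The covered bases were then split by position. Within 500 bp of protein-coding TSSs, peaks covered 8.00 and 8.30 Mb in control and 7.76 and 7.97 Mb in auxin, so that the weaker control and the stronger auxin list lay side by side. In the rest of the coding genes they covered 43.3 and 47.9 Mb in control and 36.0 and 35.4 Mb in auxin. In the 5 kb past gene ends they covered 9.78 and 10.7 Mb in control and 8.53 and 8.52 Mb in auxin. Elsewhere the values were 5.62 and 6.36 Mb in control and 4.88 and 4.87 Mb in auxin. The gap in Mb was thus widest in the gene bodies, which hold most of the covered bases. As shares of the covered bases, gene bodies held 64.9% and 65.4% in control and 62.9% and 62.4% in auxin. Sequence elsewhere held 8.42% and 8.69% in control and 8.54% and 8.59% in auxin, so the difference was not confined to gene bodies.

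**Figure D1:**
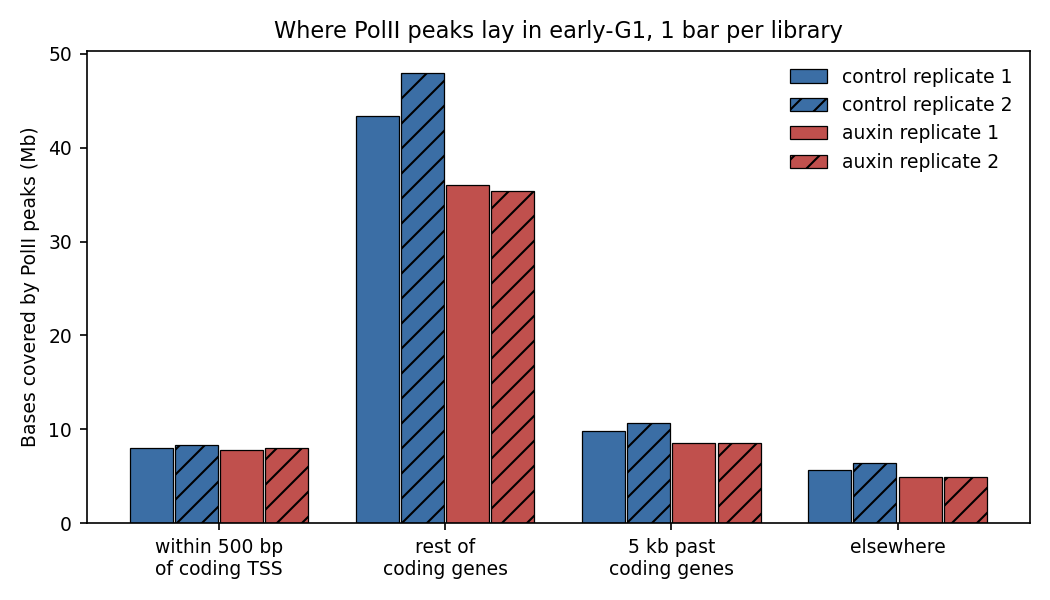
Bases covered by PolII peaks in the 4 early-G1 libraries, in Mb, split by position; bars start at 0 and each bar is 1 library. Coverage within 500 bp of coding TSSs lies between 7.76 and 8.30 Mb in all 4, and coverage in the rest of coding genes lies at 43.3 and 47.9 Mb in control and at 36.0 and 35.4 Mb in auxin.

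For single genes, coverage was measured from 500 bp past the TSS to the annotated end in 7569 protein-coding genes longer than 1 kb with a TSS peak in all 4 lists. The mean share of the body covered was 25.6% and 28.0% in control and 22.7% and 23.0% in auxin. Coverage in both auxin lists lay below both control lists in 3337 genes, 44.1% of those measured, and above both in 519 genes, 6.86%. No gene passed limma at an adjusted p under 0.05 in either direction (0% of 7569), and 1651 genes (21.8%) had an unadjusted p under 0.05. The share with lower, non-overlapping coverage was 31.3% for genes of 1 to 10 kb, 45.4% for 10 to 30 kb, 52.2% for 30 to 100 kb and 51.7% above 100 kb. Past the annotated ends, the second kb was covered in 51.4% and 54.6% of its bases in control and in 45.8% and 46.1% in auxin.

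In long genes, auxin coverage as a percent of control was lower far from the TSS than near it. The 623 measured genes over 100 kb give a ruler for how far into a gene peaks reach. From 500 bp to 5 kb, peaks covered 10.6% and 12.4% of these genes in control and 9.21% and 9.46% in auxin, 81.2% of control. From 80 to 100 kb, they covered 5.59% and 5.96% in control and 3.65% and 3.23% in auxin, 59.5% of control. Between these windows, at 20 to 30 kb, the control lists covered 4.96% and 5.65% and the auxin lists 4.11% and 3.96%, so the control lists were no lower at 80 to 100 kb than there, whereas both auxin lists were. Around TSSs of all coding genes the same share was 25.7% and 26.6% in control and 24.9% and 25.6% in auxin, 96.5% of control. The 80 to 100 kb value was 58.7% of control with peaks of −log10 q of 5 or more, 61.2% with equal list sizes, and 55.9% to 63.2% when any 1 library was left out. These windows share the same 4 libraries, and no test beyond the spread between them was made.

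**Figure D2:**
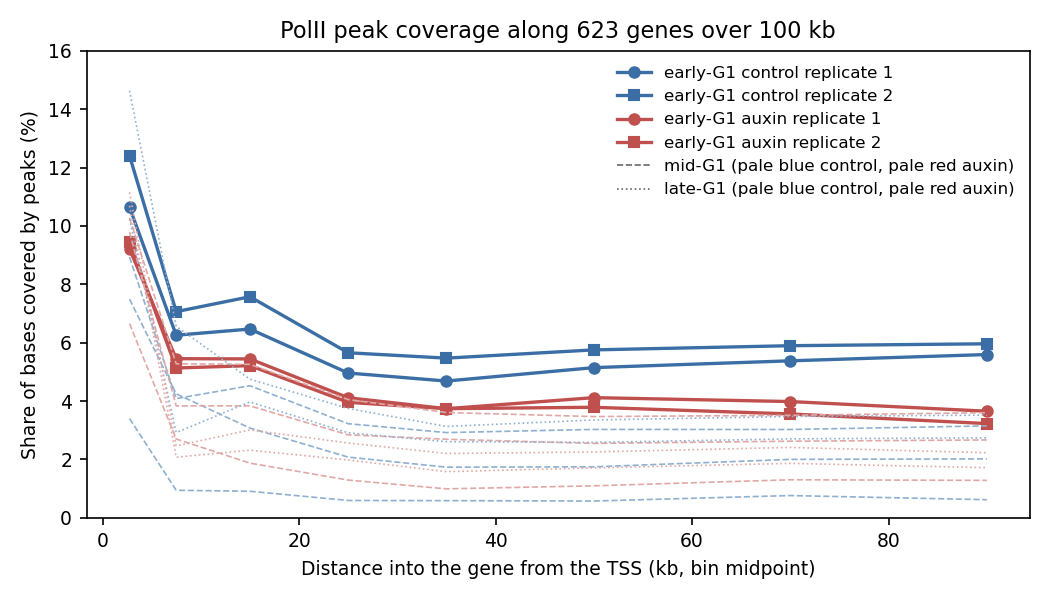
Share of the sequence covered by PolII peaks (percent) by distance from the TSS (kb) in the 623 genes over 100 kb, with 1 line for each early-G1 library. The control lines end at 5.59% and 5.96% at 80 to 100 kb and the auxin lines at 3.65% and 3.23%, after starting at 10.6% and 12.4% and at 9.21% and 9.46%.

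Between 80 and 100 kb, coverage was lower and non-overlapping in 166 of the 623 genes (26.6%), higher and non-overlapping in 12 (1.93%), and 0 in all 4 lists in 290. At least 25% of the window was covered in 45 and 48 genes in control and in 25 and 19 in auxin. The genes below were chosen after their values were seen, as those with the largest differences. In Cdc73, a subunit of the PAF1 elongation complex, coverage of the window was 37.1% and 44.0% in control and 15.1% and 5.24% in auxin. In Tlk2, a kinase that acts on histone chaperones, it was 54.4% and 60.7% against 28.3% and 28.7%. In Epb4.1, which encodes the red cell membrane protein 4.1, it was 56.0% and 55.7% against 28.1% and 28.8%. All 3 had non-overlapping conditions, as had Arid2, Trip12, Smarcc1, Wnk1 and Tlk1. At the other extreme the differences were small, as in Vcl (vinculin), with 30.6% and 30.2% in control and 33.3% and 32.9% in auxin.

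The same window was examined later in G1. From 80 to 100 kb, coverage was 0.621%, 3.15% and 2.02% in mid-G1 control and 2.67%, 3.60% and 1.28% in mid-G1 auxin libraries. The late-G1 control libraries had 2.74% and 3.52%, and the auxin libraries 2.23% and 1.72%. The mid-G1 conditions overlapped, and the late-G1 ones did not. Whether the auxin difference in this window depends on stage was not tested.

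To find single regions that differed in PolII, all regions detected in a list were ranked within it by fold enrichment, with rank 1 for the strongest and tied regions sharing a mean rank, and the 36634 regions present in all 4 lists were compared. The measure compared is −log2 of the rank, so a change of −1 is a doubled rank number. With limma, 22 regions were called lower with auxin (0.0601% of those tested) and 15 higher (0.0409%), in all 37 (0.101%), and 3023 (8.25%) had an unadjusted p under 0.05. Called changes ranged in size from 1.58 to 3.85 for lower and from 1.59 to 3.39 for higher regions. The split between directions depended on the scale. It was 48 lower and 12 higher with normal scores of the rank, 39 and 77 with log2 fold enrichment and 17 and 36 with log2 summit pileup, and limma without the mean-variance trend called 0 regions, with 2973 at an unadjusted p under 0.05. The calls therefore rest on that trend.

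The positions of the called regions are given as counts, and the directions were not tested against each other. Of the 15 regions called higher, 13 hold a protein-coding TSS, as do 9 of the 22 called lower and 23.2% of all tested. Among the 17177 tested regions also found in all 10 mid-G1 and late-G1 libraries, 7664 hold one, and 34 called regions are in that set. The summit lies within 5 kb past the annotated end of a gene in 14 of the 22 lower and in 3 of the 15 higher regions, beside 24.8% of all tested. Over all tested regions, the median change was 0.05 for the 8505 with a coding TSS and −0.08 for the 4217 within 5 kb past a coding gene, beside 0.02 for all 36634. It was 0.15 for regions under 500 bp and −0.09 for those over 5 kb.

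**Figure D3:**
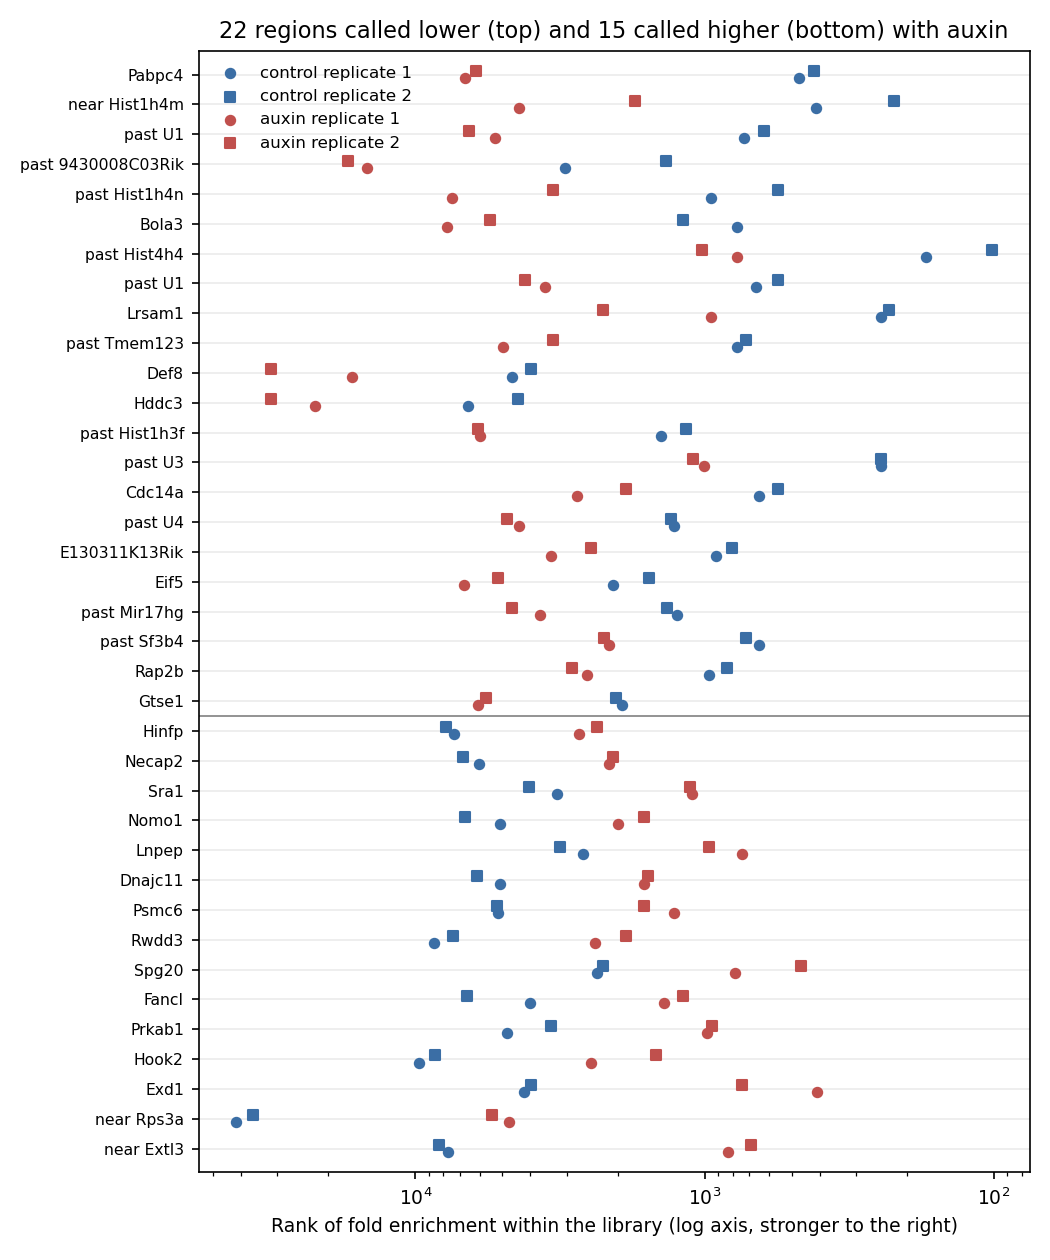
Rank of the fold enrichment (log axis, rank 1 is the strongest) of the called regions in the 4 early-G1 libraries, 1 row per region and 1 point per library. In each row the control points lie on the opposite side from the auxin points, from rank 473.5 and 418.5 against 6713.5 and 6170.5 at Pabpc4 to 4224.5 and 3984.5 against 409 and 744.5 at Exd1.

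Promoters that lost rank were led by Pabpc4, which encodes a cytoplasmic poly(A)-binding protein. The region at its TSS (chr4:122959825-122960562) stood at rank 473.5 and 418.5 in control and at 6713.5 and 6170.5 in auxin. Both auxin values lay far below both control values in strength (change −3.85 ± 0.24 (SE), limma adjusted p = 0.000225). Fold enrichment at the region was 49.4 and 47.0 in control and 19 and 19.7 in auxin. Coverage of the annotated gene was 27.5% and 26.8% in control and 4.41% and 4.72% in auxin, and of the 5 kb past its end 96.6% and 100% against 27.2% and 34%. The annotated gene spans chr4:122939594-122976168, and the TSS of the called region is at chr4:122960068. The coverage of the gene thus includes sequence upstream of this promoter and the promoter region itself. The called promoter, the annotated gene that contains it and the end of Pabpc4 all lay lower, without overlap between conditions.

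Bola3, whose product takes part in mitochondrial iron-sulfur cluster assembly, had ranks of 775 and 1187.5 in control and 7787.5 and 5516 in auxin (change −2.77 ± 0.29 (SE), limma adjusted p = 0.00742). Its body was covered to 46.8% and 53.8% in control and to 27.1% and 28.3% in auxin. Def8 went from 4618 and 3984.5 to 16532 and 31439 (change −2.41 ± 0.36 (SE), limma adjusted p = 0.0443). Hddc3, an HD-domain hydrolase gene, went from 6553.5 and 4421 to 22313.5 and 31439 (change −2.30 ± 0.35 (SE), limma adjusted p = 0.0465). In these 3 promoters, as in Pabpc4, no auxin library reached the weaker control library. Cdc14a, a phosphatase gene, was at 647.5 and 557 in control and at 2751 and 1868.5 in auxin (change −1.92).

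The region that holds the TSSs of Lrsam1 and Rpl12 was also called lower, from 245.5 and 231 to 947 and 2248.5 (change −2.62, limma adjusted p = 0.0465). Its summit lies 1295 bp past the end of Rpl12, which encodes a protein of the large ribosomal subunit, and 4177 bp from the TSS of Lrsam1. The Rpl12 body was covered to 100% in all 4 lists, the limit of that measure. Gtse1, a p53 target that encodes a microtubule-associated protein of the G2 phase, had ranks of 1937.5 and 2020.5 in control and 6083 and 5717.5 in auxin (change −1.58, limma adjusted p = 0.0443). Its body was covered to 81.3% and 81.6% in control and to 44.3% and 43.2% in auxin.

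The long noncoding host gene Snhg17, annotated in these gene models as 9430008C03Rik, lost rank over its end. The region chr2:158176745-158183199 holds a SNORA71 small nucleolar RNA and has its summit 2415 bp past the annotated end of the host gene. Its ranks were 3039 and 1358 in control and 14689 and 17148 in auxin (change −2.97 ± 0.36 (SE), limma adjusted p = 0.0166). The body was covered to 82.7% and 82.5% in control and to 21.6% and 18.4% in auxin, and the 5 kb beyond it to 83.0% and 98.1% against 38.0% and 37.8%. A region past the end of Tmem123, a cell surface protein gene, went from 775 and 721.5 to 4988.5 and 3336 (change −2.45, limma adjusted p = 0.00839).

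A group of called regions lay just past genes whose transcripts are not polyadenylated. Replication-dependent histone messages end in a stem loop, and the small nuclear RNAs U1 and U4, which are parts of the spliceosome, are released by the Integrator complex. Past Hist4h4, ranks were 171 and 101.5 in control and 772.5 and 1020.5 in auxin (change −2.75, limma adjusted p = 0.0443). Past Hist1h3f they were 1420 and 1158 against 5965 and 6058 (change −2.23, limma adjusted p = 0.00831). Past Hist1h4n and Hist1h2ap they were 953.5 and 557 against 7465 and 3336 (change −2.78, limma adjusted p = 0.0316). A called region near Hist1h4m, 9234 bp from its TSS, went from 412 and 222 to 4373.5 and 1746.5 (change −3.19, limma adjusted p = 0.0297). Unlike the others, it did not lie within 5 kb past a gene. None of these 4 regions overlapped between conditions.

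Beyond the histone genes, a called region 1165 bp past a U1 gene, nearest to BC107364, went from 729.5 and 621 to 5297.5 and 6505.5 (change −3.12, limma adjusted p = 0.000859). Another, 666 bp past a U1 gene and nearest to Fcgr1, went from 666 and 557 to 3564.5 and 4171.5 (change −2.66, limma adjusted p = 0.00377). A region chosen after its values were seen, nearest to Sirt4 and 702 bp past a pair of U4 genes, was at 1274.5 and 1310.5 in control and at 4373.5 and 4811 in auxin (change −1.83). A region within Tex14, 710 bp past a U3 gene, was at 245.5 and 245.5 against 1003 and 1096 (change −2.09). U3 is a small nucleolar RNA that guides processing of ribosomal RNA. In each of these regions the auxin values were both weaker than the control values.

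Since these regions drew attention after their values were seen, all tested regions in the same zones were counted as a description. At the 67 replication-dependent histone genes, 19 tested regions had their summit within a gene, with a median change of 0.01 and 0 called. Several of these stood at the top ranks, where the SE on the −log2 scale is large. At Hist1h4d, ranks of 9 and 4 in control and 4 and 5 in auxin gave an SE of 7.45, beside 0.24 past Hist1h3f. Calls were thus hardly possible at such ranks, and their number does not compare the zones. Within 2 kb past the genes, 23 tested regions had their summit, of which 3 were called lower and 17 were below 0. Their median change was −1.01, beside −0.08 for all 4217 tested regions within 5 kb past a coding gene. The zone was set by the summit in the best-ranked list, and several of the 23 also hold a histone TSS. One, chr13:22124640-22134569, is 9930 bp wide and holds the TSSs of Hist1h2bk, Hist1h2ah and Hist1h4i. The zones are thus not separate parts of genes. The 3 called regions hold no coding TSS. Ranks were weaker in both auxin lists without overlap in 12 of these 23, beside 18.6% of all tested regions, and both auxin lists were stronger in 19.7% of all. Past genes annotated as small nuclear RNA, U3 or 7SK, which number 699 and include many copies, 51 regions were tested, 4 were called lower and 31 were below 0, with a median of −0.28. Only 4 tested regions had their summit in such a gene. Histone genes and small nuclear RNA genes exist in near-identical copies, and the authors removed alignments of low mapping quality, which include reads that fit several copies equally well, so their ranks are uncertain.

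**Figure D4:**
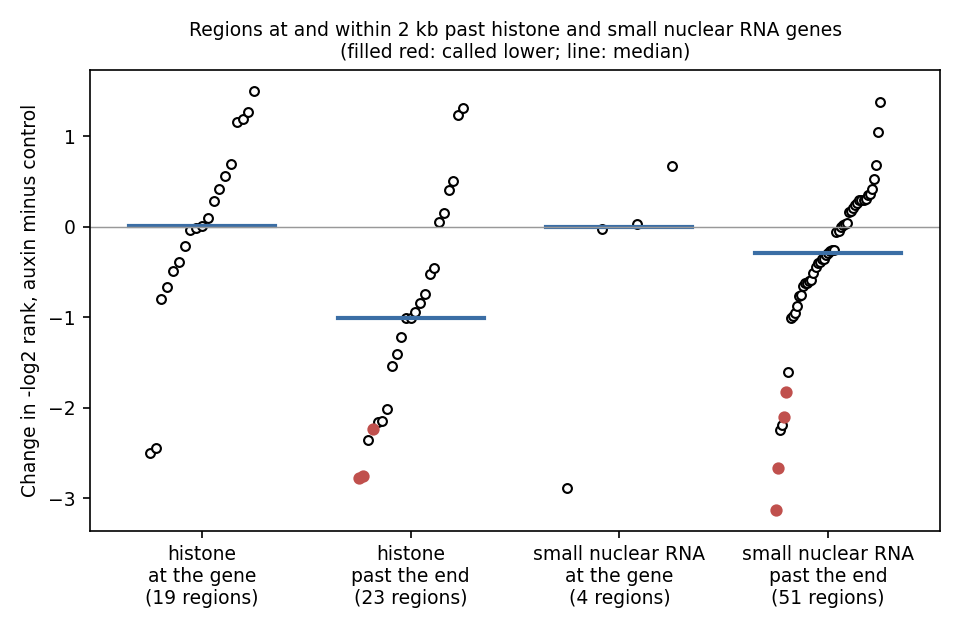
Change in −log2 rank (auxin minus control, early-G1) of each tested region with its summit in or within 2 kb past a histone or small nuclear RNA gene, 1 point per region, with the median of each zone. The median is 0.01 in histone genes, −1.01 past their ends and −0.28 past small nuclear RNA genes. Zones follow the summit, and several regions past histone ends also hold a histone TSS.

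Regions called higher with auxin were mostly promoters. Exd1, at a TSS shared with 1500003O03Rik, had ranks of 4224.5 and 3984.5 in control and 409 and 744.5 in auxin (change 2.89 ± 0.30 (SE), limma adjusted p = 0.00742). Hook2, which encodes an adaptor between cargo and microtubule motors, went from 9709.5 and 8571.5 to 2461.5 and 1471.5 (change 2.26 ± 0.29 (SE), limma adjusted p = 0.0233). Prkab1, a regulatory subunit of the energy-sensing kinase AMPK, went from 4823 and 3384.5 to 983.5 and 941 (change 2.07 ± 0.26 (SE), limma adjusted p = 0.0218). The auxin libraries were stronger than both control libraries at each of them. Beyond the promoter, the Hook2 body was covered to 0% in all 4 lists, and the Exd1 body to 1.22% and 1.01% in control and to 1.03% and 1.07% in auxin.

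Further promoters were called higher with smaller changes. Fancl, the ubiquitin ligase of the Fanconi anemia pathway, went from 4030 and 6617 to 1376.5 and 1183.5 (change 2.02, limma adjusted p = 0.0359). Psmc6, an ATPase subunit of the proteasome, went from 5181 and 5222.5 to 1272 and 1625 (change 1.86, limma adjusted p = 0.0271). Hinfp, a transcription factor of histone H4 genes, went from 7375 and 7839 to 2710.5 and 2355 (change 1.59, limma adjusted p = 0.0465). Spg20, Rwdd3, Dnajc11, Lnpep, Nomo1, Sra1 with Eif4ebp3, and Necap2 were called as well, with changes of 1.61 to 1.93. In each of these the control and auxin ranks did not overlap. The direction at Lnpep turned to −0.13 with log2 summit pileup in place of the rank.

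At some of these genes the rank at the TSS was higher with auxin while less of the body was covered. At Psmc6, the body was covered to 35.0% and 33.0% in control and to 17.1% and 20.4% in auxin. At Nomo1, it was covered to 37.9% and 43.1% against 15.1% and 23.3%, while the TSS rank went from 5083.5 and 6718 to 1998 and 1625. At Fancl, the 5 kb past the end were covered to 38.6% and 38.0% in control and to 7.36% and 4.58% in auxin. The opposite was seen at Rwdd3, where coverage of the body was 0.317% and 0% in control and 3.23% and 6.98% in auxin. Coverage of Prkab1 and Dnajc11 overlapped between conditions. No single gene body passed limma, as given above.

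The strongest gains lay outside annotated promoters. The region chr14:65768175-65769335, 52095 bp from the nearest coding TSS of Extl3, went from rank 7683.5 and 8265.5 to 832 and 692.5 (change 3.39 ± 0.24 (SE), limma adjusted p = 0.000399). The region chr3:85948794-85951917, 4655 bp from the TSS of the ribosomal protein gene Rps3a, went from 41586.5 and 36497 to 4759 and 5436 (change 2.94 ± 0.34 (SE), limma adjusted p = 0.0138). Its covered bases were 664 and 1196 in control and 2758 and 3120 in auxin. The Rps3a body itself was covered to 95.4% and 95.6% in control and to 87.9% and 84.6% in auxin. When peaks within 1 kb were merged, the change of the merged region near Rps3a was −0.34.

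Covered bases were tested in the 9659 regions wider than 2 kb found in all 4 lists, relative to the median of each list, which was 2636 and 2860 bp in control and 2355 and 2330 bp in auxin. With limma, 20 regions were called lower (0.207%) and 11 higher (0.114%), together 0.321%, and 1882 (19.5%) had an unadjusted p under 0.05. A coding TSS was held by 2 of the 20 and by 4 of the 11, beside 31.1% of all tested. Past the end of Cabin1, a calcineurin inhibitor gene, 3881 and 3406 bp were covered in control and 800 and 688 bp in auxin (log2 change −2.06, limma adjusted p = 0.0103). Past the end of Pabpc4 the values were 5880 and 5893 against 1360 and 2124 bp (log2 change −1.56, limma adjusted p = 0.0204). At the TSS of Snhg17 they were 3153 and 3336 against 1039 and 1139 bp (log2 change −1.35, limma adjusted p = 0.0308).

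Within Tab1, an adaptor of the kinase TAK1, 3928 and 3985 bp were covered in control and 1427 and 1219 bp in auxin (log2 change −1.36). Within Tmem131 the values were 3471 and 3157 against 1269 and 1317 bp (log2 change −1.13). These 2 regions, like those before, did not overlap between conditions. Higher coverage after the region near Rps3a was led by Numa1, which encodes a spindle pole protein, with 1794 and 1473 bp in control and 3015 and 2877 bp in auxin (log2 change 1.09, limma adjusted p = 0.0445). Hmha1 had 1667 and 2194 against 3104 and 3420 bp, the region near Letmd1 1790 and 1902 against 3142 and 2836 bp, and the region of Ocel1 and Nr2f6 1982 and 1850 against 3137 and 2986 bp. These calls were sensitive to the fit, with 0 regions in either direction without control replicate 1 or without control replicate 2, and 844 lower and 356 higher without auxin replicate 1.

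Detection was the third measure. Of the 133575 merged regions, 36634 (27.4%) were found in all 4 lists, 7181 in both control and no auxin list (5.38%) and 2698 in both auxin and no control list (2.02%). Among the 9271 regions with a coding TSS the counts were 59 (0.636%) and 40 (0.431%). Regions found in 1 condition only had a median width of 388 bp in control and 343 bp in auxin, close to the 350 bp of all merged regions, whereas those in all 4 had 1195 bp. Their median best fold enrichment was 5.15 and 5.45, beside 5.36 for all merged regions and 8.86 for those in all 4. Most lay in gene bodies, 82.3% of the control-only and 80.7% of the auxin-only regions, beside 76.0% of all. Their counts without a library ranged from 12245 to 28403 for control only and from 5176 to 15926 for auxin only, since a single library then decides.

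The strongest control-only region was the promoter of Mrps2, a protein of the small mitochondrial ribosomal subunit that the study itself picked on these libraries. Its ranks were 3083.5 and 4688 in control, and it had no peak in either auxin list. The 3424 bp region past its end was likewise found only in control, at ranks 10604 and 8695. The body was covered to 18.4% and 15.6% in control and the 5 kb beyond to 58.0% and 65.6%, and both were at 0% in auxin. In mid- and late-G1 the promoter peak was found in 5 of 5 control and 4 of 5 auxin libraries, and the peak past the end in 5 of 5 and 1 of 5.

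Other strong control-only regions lay near Pmvk and within D6Wsu163e, Ccni and Birc6. That near Pmvk, 22292 bp from its TSS, had ranks of 8353.5 and 15327 and was found later in 5 of 5 control and 0 of 5 auxin libraries. That in D6Wsu163e was found later in 5 of 5 and 1 of 5, that in Ccni in 5 of 5 and 5 of 5, and that in Birc6 in 4 of 5 and 4 of 5. Among promoters, Adamtsl5 was found later in 5 of 5 control and 1 of 5 auxin libraries and Samd9l in 4 of 5 and 0 of 5. Gm10384, P2rx2 and Luc7l2 did not separate the later conditions in this way.

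The strongest auxin-only region was a TSS of Rapgef1, an exchange factor for the GTPase RAP1, at ranks 8458.5 and 7127.5. It was found in 1 of 5 control and 5 of 5 auxin libraries of the later stages. A second region near Rps3a, 7800 bp from its TSS, stood at 9725.5 and 8392.5 and was found later in 0 of 5 control and 5 of 5 auxin libraries. The regions near Mterf and Uchl3, 199 and 344 bp from their TSSs, were likewise found in 0 of 5 and 5 of 5, as was the TSS of Gm17380. The region past AB124611 and near Carm1 was found in 2 of 5 and 5 of 5. For Lgmn, Vwa5a, Pdgfrb, Frs3 and a region in Ntn4, later detection in control ranged from 2 to 4 of 5 libraries.

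Lists of genes were examined to see whether functional groups moved in rank in the regions that hold their TSS. The rank is that of the strongest peak of such a region, which can lie away from the TSS, as at Rpl12. Over the 8505 tested coding TSS regions, 9 were called lower and 13 higher, 970 had an unadjusted p under 0.05 and the median change was 0.05. Of 22 lists, only 3 held a called member, which were Rpl12 among cytosolic ribosomal protein genes, Gtse1 among p53 targets and Psmc6 among proteasome subunits. No group is therefore described as having changed. Nor do 0 calls show that a list of top-ranked genes was unchanged, because the SE of the −log2 rank grows toward the top. It was 1.44 for Rps12 and 1.67 for Snhg5, beside 0.26 for Ctcf, so such lists could hardly yield a call. The 16 genes of CTCF and cohesin had a peak in all 4 lists, with 0 called and a median of 0.07. Within that group Smc3, a core cohesin subunit, had ranks of 220.5 and 208 in control and 124.5 and 51 in auxin (change 1.43, limma adjusted p = 0.612), Stag1 had 1665 and 1351 against 548 and 779 (change 1.20, limma adjusted p = 0.267), and Mau2 had 360 and 354 against 367 and 345. Named after their values were seen are Wapal, the cohesin release factor, with a change of 1.16 (limma adjusted p = 0.274), and the members with the lowest changes, Hdac8 at −0.65 and Sgol1 at −0.46.

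Among blood genes, the 21 tested of 31 globin and erythroid genes had a median change of −0.01, the 8 tested enzymes of heme synthesis one of 0.09 and the 14 tested progenitor regulators one of 0.00, with 0 called in each. Tfrc was at ranks 106.5 and 119 in control and 98.5 and 99 in auxin, Tal1 at 382 and 266 against 439.5 and 662.5, and Klf1 at 1599.5 and 2026.5 against 1658 and 1169. Kit, the receptor of stem cell factor, was at 647.5 and 675 against 655 and 692.5. Runx1 was at 140 and 119 against 154 and 104.5, and Alad, of heme synthesis, at 1562 and 2648 against 2447 and 1654. None of these 6 genes was called.

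Of the cytosolic ribosomal protein genes, 72 of 82 were tested, 1 was called lower and 49 were below 0, with a median of −0.19, whereas 69 regions of mitochondrial ribosomal protein genes had a median of −0.02. Over all 8505 tested coding TSS regions, 3793 were below 0. Rps12 was at ranks 36 and 41 in control and 40 and 29.5 in auxin, and Rps2 at 62 and 51.5 against 76.5 and 73. The 10 tested host genes of small nucleolar RNAs had a median of −0.24 with 0 called, and their strongest members Snhg5, Gas5 and Nop56 had changes of 0.33, 0.73 and 0.03. Proteasome subunits had a median of −0.06 over 37 regions, with Psmc6 the single call.

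The lists that follow cells out of mitosis had medians near that of all coding TSSs and 0 called members apart from Gtse1. The median was −0.12 for 25 genes of G1 cyclins, their kinases and the E2F-Rb system, 0.01 for 28 mitotic genes, 0.16 for 20 replication licensing genes and 0.06 for 21 p53 targets. Ccnd2, which encodes cyclin D2, was at ranks 131 and 177 in control and 277 and 309 in auxin (change −0.94, limma adjusted p = 0.649). Top2a was at 715 and 386 against 803.5 and 999, and Cdkn1a, the p21 inhibitor, at 56 and 53.5 against 64 and 38. Immediate early genes had a median of 0.09 over 17 regions, with Junb at 75.5 and 76.5 against 78 and 46, and heat shock and chaperone genes one of 0.10 over 20.

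The remaining lists had 0 calls as well. Medians were −0.01 for 52 regions of PolII and general transcription factor genes, 0.08 for 25 of splicing regulators, 0.02 for 24 at histone genes, 0.29 for 7 of spliceosomal small nuclear RNA genes and 0.01 for 12 of imprinted genes. The histone regions of this list were taken by TSS, so some are also counted past histone ends above. Polr2a, the large PolII subunit, was at ranks 22.5 and 23 in control and 14 and 18 in auxin. Only 3 regions were tested for the Hox genes, of which the region of Hoxc4, Hoxc5 and Hoxc6 was at 1580.5 and 867.5 against 598.5 and 429 (change 1.21, limma adjusted p = 0.399). None of the 23 clustered protocadherin genes, whose promoters are known CTCF targets in neurons, had a peak.

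The study picked Max, Mrps2 and Snhg17 as examples on these same libraries, so their direction is no independent evidence, and it showed Rfwd2 on PolII libraries of the parental line, which were not used here. At Max, the partner of MYC, the body was covered to 22.7% and 29.3% in control and to 49.8% and 51.4% in auxin, without overlap, while the TSS ranks were 11023.5 and 5514.5 against 4908 and 7039.5 and overlapped. At Rfwd2, a ubiquitin ligase gene of 115.3 kb, the TSS ranks were 328 and 457 against 353 and 391. Its body was covered to 19.3% and 21.6% in control and to 13.2% and 7.73% in auxin, and the 5 kb past its end to 73.7% and 64.3% against 13.8% and 13%. Max thus lay higher with auxin along the body, and Rfwd2 lower along the body and past the end. At the TSS the ranks of both genes overlapped between conditions.

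The 10 libraries of mid-G1 and late-G1, which the early-G1 fit did not use, show which called regions kept their direction. Of the 22 regions called lower, 21 were found in all 14 post-mitotic libraries, 15 of these had a change below 0 later and 4 were called lower there. Of the 15 called higher, 13 were found in all 14, 12 had a change above 0 and 4 were called higher. In the later fit, 20 of 17177 regions were called lower (0.116%) and 27 higher (0.157%), together 47 (0.274%), and 1415 (8.24%) had an unadjusted p under 0.05. In 6 of these 34 regions, the strongest peak of 1 or more later libraries also touched another early-G1 region, as at the end of Snhg17 in 2 of the 5 control libraries. The shared calls were Pabpc4, Def8, the end of Snhg17 and a region 2516 bp past Mir17hg, and Exd1, Hook2, Nomo1 and Rwdd3. The region past Mir17hg, which hosts the miR-17 cluster, was at 1247.5 and 1346 in control and 3714.5 and 4628 in auxin in early-G1, and is named because of its later call.

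In the later stages, the Pabpc4 promoter ranged from rank 257 to 585.5 over the 5 control libraries and from 3692.5 to 7424.5 over the 5 auxin libraries (change −3.62 ± 0.34 (SE), limma adjusted p = 0.000107). The end of Snhg17 ranged from 464 to 1556.5 in control and from 8911.5 to 11831.5 in auxin (change −3.54). Exd1 ranged from 5823 to 10276.5 in control and from 522 to 984 in auxin (change 3.57). Hook2 ranged from 7514 to 13863.5 in control and from 892.5 to 2312.5 in auxin (change 2.61). At these 4 loci the later conditions did not overlap. The region near Extl3 ranged from 11260.5 to 19089.5 in control, and from 698.5 to 1536.5 in auxin, over the 4 control and 5 auxin libraries that detected it.

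The called regions past histone genes were not called later. Past Hist1h3f the later change was 0.42 ± 1.22 (SE), past Hist1h4n and Hist1h2ap it was 0.67 ± 1.27 (SE), and past Hist4h4 it was −0.25 ± 0.79 (SE). Past Hist1h3f the median later rank was 383.5 in control and 548 in auxin, with worst ranks of 28127.5 and 20094.5. Past Hist1h4n and Hist1h2ap the medians were 383.5 and 494.5, with worst ranks of 34689 and 14820. Past Hist4h4 the medians were 245 and 578. By the median, each was thus weaker with auxin later as well. Over the 21 tested regions past histone genes found in all 14 libraries, the later median was −0.17, with 13 below 0 and 0 called. The 2 called regions past U1 genes had later changes of 0.51 and −0.09. The interaction of auxin with stage, tested with limma over 17177 regions, called 2 regions (0.0116%), 1 in each direction (0.00582%), with 673 (3.92%) at an unadjusted p under 0.05, and none of the 34 early-G1 calls in that fit was among them, of which 7 of the lower and 5 of the higher had an unadjusted p under 0.05. In both regions that were, the best later rank came from a peak that also touched neighbouring early-G1 regions. A difference between stages is therefore not shown for the histone ends or for any other region called in early-G1.

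**Figure D5:**
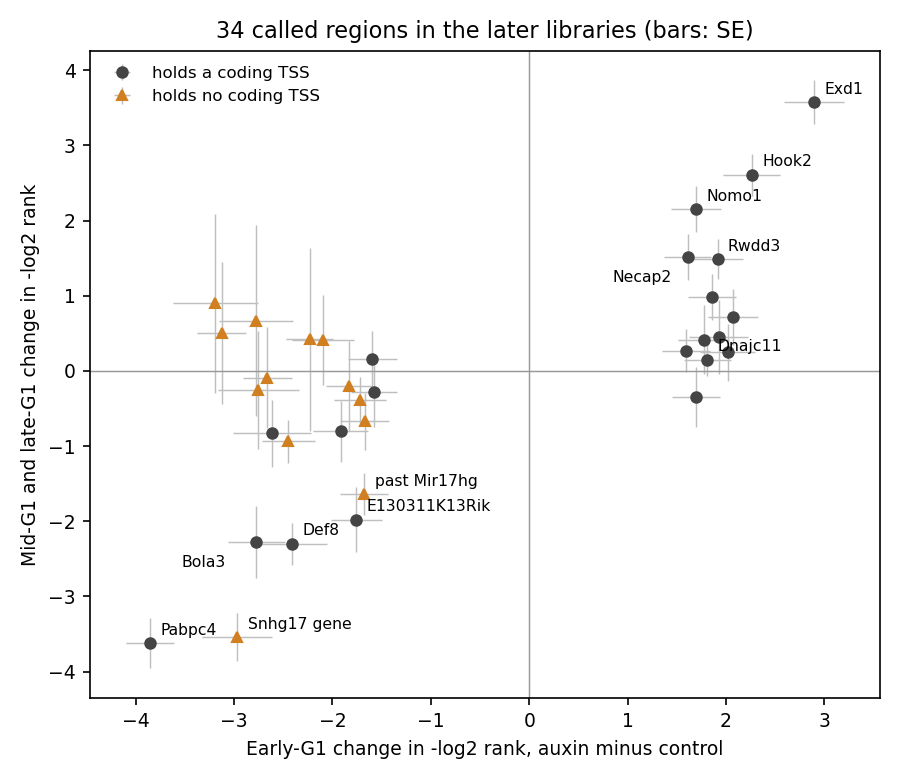
Change in −log2 rank with auxin in early-G1 (horizontal) against the mean change in mid-G1 and late-G1 (vertical) for the 34 called regions found in all 14 libraries; bars are SE, circles hold a coding TSS and triangles do not. Pabpc4 and the Snhg17 gene lie at the lower left (−3.85 and −3.62, and −2.97 and −3.54) and Exd1 at the upper right (2.89 and 3.57), while several triangles on the left lie near 0 in the later stages.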

How the data were processed

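PolII ChIP-seq peak lists of early-G1 G1E-ER4 cells were compared, 2 control and 2 auxin-treated, grouped by sample title, with 10 mid-G1 and late-G1 lists as a later reference. The authors aligned reads to mm9 with Bowtie2 2.2.9, removed alignments of low mapping quality and duplicates (SAMtools 0.1.19) and blacklisted intervals (bedtools 2.27.1), and called narrow peaks with MACS2 2.1.0 in each library against the input of its stage, without pooling replicates. Versions are from the submitters' processing notes. Each deposited list gives the fold enrichment of a peak as a linear ratio, and its −log10 p-value and −log10 q-value as computed by the authors. No read counts were used here.

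The pileup and background of each peak were solved from fold enrichment and p-value. The pileup came out whole within 0.05 for 100% of peaks, and the commonest background divided by the narrowest peak gave the relative depth. Values without control replicate 2, the deepest library, and with equal list sizes are given. A later peak that touched several early-G1 regions gave its value to each. Genes were annotated from the NCBIM37 gene models, with the symbol Snhg17 taken from RefSeq.

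Rank changes (−log2 rank), log2 covered bases and percent of gene body covered were fitted in limma 3.58.1 (R 4.3.3) with a mean-variance trend and Benjamini-Hochberg adjustment over all features, called under 0.05. Whole-list values were compared by exact permutation tests. Of these tests, only the early-G1 rank fit was checked on simulated data. The simulated noise was drawn from regions of similar rank, so that check cannot test the mean-variance trend itself. Positions and sequences were handled with Python 3.11.15, numpy 2.4.6, scipy 1.17.1, pandas 2.3.3, pysam 0.24.0 and samtools 1.23.1. With 2 libraries a condition, limma p-values rest on the spread between these samples and on a variance trend drawn from all features fitted.

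Members, gene lists and tests were chosen with earlier results of these data known. Named were the 15 largest called rank changes per direction, the 6 best-ranked regions found in 1 condition only and the 6 best with a coding TSS, the 5 largest called changes in covered bases per direction, and, from each gene list, called members and the 3 best-ranked members, of which some are described. Also named were Ctcf and examples of the study. Regions named for another reason were chosen after their values were seen and are marked so. Alternatives were another scale of rank, no trend, other merging, detection and q-value filters, a replicate block and each library left out. Alternatives for coverage by part of the gene were added after seeing the data.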

Additional observations from a re-analysis of the deposited data

Results flagged for a closer look

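The auxin effect differed between early-G1 and the mean of mid-G1 and late-G1 in 2 of 17177 regions by the interaction test of limma. On chromosome 1, the region chr1:173434731-173435241, 18 bp past Refbp2, had an early-G1 effect 5.15 lower than the later effect on the −log2 rank scale (a difference of −5.15 ± 0.42 (SE), adjusted p = 1.33e-05). Its early-G1 ranks were 31439.5 and 16978 in control and 32984 and 19472 in auxin, a change of −0.13, and its later ranks ranged from 18134.5 to 26757 in control and from 27.5 to 15436 in auxin, with medians of 18471 and 14067. On chromosome 8, the region chr8:73363730-73364362, 1929 bp past Kcnn1, had an early-G1 effect 2.81 above the later effect (SE 0.42, limma adjusted p = 0.0362). Its early-G1 change was 0.20, and its later ranks ranged from 99 to 10413.5 in control and from 5214.5 to 8206.5 in auxin, with medians of 8751 and 6900. The peak that gave the rank of 27.5 reached 3272 bp beyond the Refbp2 region and also touched 1 other early-G1 region, and the peak that gave the rank of 99 reached 3468 bp beyond the Kcnn1 region and touched 3 early-G1 regions in all. The early-G1 ranks of both regions overlapped between conditions.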

How the results depend on the processing

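The lists hold no read counts, and control replicate 2 was the deepest. The log2 difference in peak number turned to 0.048 with peaks joined within 1 kb, and ranged from −0.08 to −0.03 over the libraries left out. The change at Lnpep was −0.13 with log2 summit pileup, and that near Rps3a −0.34 with peaks merged within 1 kb. The cause was not tested.

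Regions in both control and no auxin lists numbered 1559, and those in both auxin and no control lists 839, with merging within 1 kb, and 12245 to 28403 and 5176 to 15926 when a library was left out, by construction. Regions called lower in rank numbered 48 with normal scores (which moved the median of all regions to −0.11), 39 with log2 fold enrichment, 0 without a trend, 55 with a replicate block, 79 in 3 or more lists, 3 with all 14 libraries fitted, 12 with merging within 1 kb, and 23 to 156 without a library. Regions called higher numbered 77 with log2 fold enrichment, 36 with summit pileup, 0 without a trend, 51 with a replicate block, 66 in 3 or more lists, 1 with all 14 libraries fitted, 4 with merging within 1 kb, and 20 to 159 without a library. The later fit called 6 lower and 5 higher with normal scores, and 9 to 99 and 8 to 67 without a library, the highest without late-G1 control replicate 2. The interaction gave 0 with normal scores and 1 to 26 without a library. Covered bases gave 0 lower and 0 higher both without a trend and with −log10 q of 5 or more, 170 and 144 with a replicate block, and 0 to 844 and 0 to 356 without a library.

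Of 441 recomputed values of the 37 called regions, 307 kept their direction and call, 132 kept the direction alone and 2 reversed. All 37 kept the call with the replicate block, in 3 or more lists, and without control replicate 1 or control replicate 2, 33 without auxin replicate 1 and 27 without auxin replicate 2. The call was kept by 34 of 37 with normal scores, 29 with log2 fold enrichment, 18 with log2 summit pileup, 15 with merging within 1 kb and 0 without a trend, and by 3 of 34 with all 14 libraries fitted. Same-numbered libraries did not deviate together (correlation 0.016 over 36634 regions), so the number was not taken as a pairing, and the replicate block left the differences in peak number, covered length (−0.30) and width as they were. Gene bodies had 0 calls under every alternative run.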
